A study of Rattus norvegicus with 5 samples.

Results

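Transcripts of chemokines, interleukins, ligands and receptors of the tumour necrosis factor (TNF) superfamily and the chemokine and interleukin receptors were compared between the livers of 2 rat strains. The set was chosen by name. It holds each probe set with a single gene symbol that starts with Ccl, Cxcl, Ccr or Cxcr and a digit, with Il and a digit, or with Tnfsf or Tnfrsf. Cxcr4, Il18, Il18bp and Il1b were left out by the same rule. It came to 89 probe sets of 89 genes, out of 8797 probe sets in the table. They were 14 CC chemokines, 11 CXC chemokines, 11 chemokine receptors, 18 interleukins (the antagonist Il1rn among them), 21 interleukin receptors, 6 TNF ligands and 8 TNF receptors.

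All rats were 4-month-old males on standard chow. PD, the polydactylous rat, is the progenitor strain. The congenic strain, PD.SHR4 in the sample labels and PD.SHR4a in the series text, has part of chromosome 4 from SHR, the spontaneously hypertensive rat, while its remaining genome is that of PD, and the series title calls such congenic strains Cd36-deficient. Where that part starts and ends is not given in the sources used here. Liver RNA was taken from 8 rats of each strain. The labelled cDNA of a strain was pooled and then hybridised to 3 Affymetrix Rat Exon 1.0 ST arrays for PD and to 2 for PD.SHR4. The p-values therefore speak of differences between arrays, possibly of technical origin, and leave out how single rats vary.

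Chemokines are small secreted proteins that guide leukocytes along a gradient through G protein-coupled receptors. Interleukins and TNF ligands carry signals between immune cells and to hepatocytes. Most interleukin receptors act through Janus kinases (JAK) and STAT factors, and the interleukin-1 and TNF receptors act through adaptor proteins and NF-kappaB. In liver, Kupffer cells (the resident macrophages), lymphocytes, endothelial cells, stellate cells and hepatocytes all make some of these proteins. In bulk tissue, fewer cells of a type and less RNA per cell cannot be told apart.

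Values are log2 expression values, and each difference is the PD.SHR4 mean minus the PD mean on that scale, with the standard error (SE) of the limma fit and an adjusted p over all 8797 probe sets. Probe sets were called dim where their mean over the 5 arrays lay under 2.89, the mean of the arrays' lower quartiles. Of the 89 members, 25 (28.1%) were dim, against 25.1% of all probe sets. The deposited values carry no detection calls, so a dim value is not proof that a transcript is missing. Array medians ran from 5.21 to 5.38. Of markers looked up to check the tissue, the 10 measured hepatocyte genes averaged 12.35 to 12.46 on single arrays.

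No member passed the test (limma, adjusted p under 0.05), while 82 of all 8797 probe sets did (0.932%), 58 of them lower (0.659%) and 24 higher (0.273%) in PD.SHR4. The smallest adjusted p of a member was 0.0959, for Tnfsf10. At an unadjusted p under 0.05 there were 14 members (15.7%), 8 with lower values in PD.SHR4 (8.99%, against 7.92% of all probe sets) and 6 with higher values (6.74%, against 5.84%). PD and PD.SHR4 arrays were fully apart for 17 members that were lower in PD.SHR4 (19.1%, against 17.1%) and for 11 that were higher (12.4%, against 14.8%). These shares lay near those of the whole table. Without PD.SHR4 array 1 or 2, the count at an unadjusted p under 0.05 was 9 or 8 members (10.1% or 8.99%, against 8.38% or 8.07% of all probe sets), and no probe set of the whole table passed the adjusted threshold. Without PD array 1, 28 probe sets of the table passed it. In that fit 45 members did not overlap (50.6%, against 46.6%), and without either PD.SHR4 array 46 did not (51.7%, against 50.9% or 51.9%). The median difference over the members was 0.040, beside 0.00020 over all probe sets, and 43 members lay below 0 and 46 above. The values below therefore describe these arrays, and none is a change that passed the test.

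**Figure D1:**
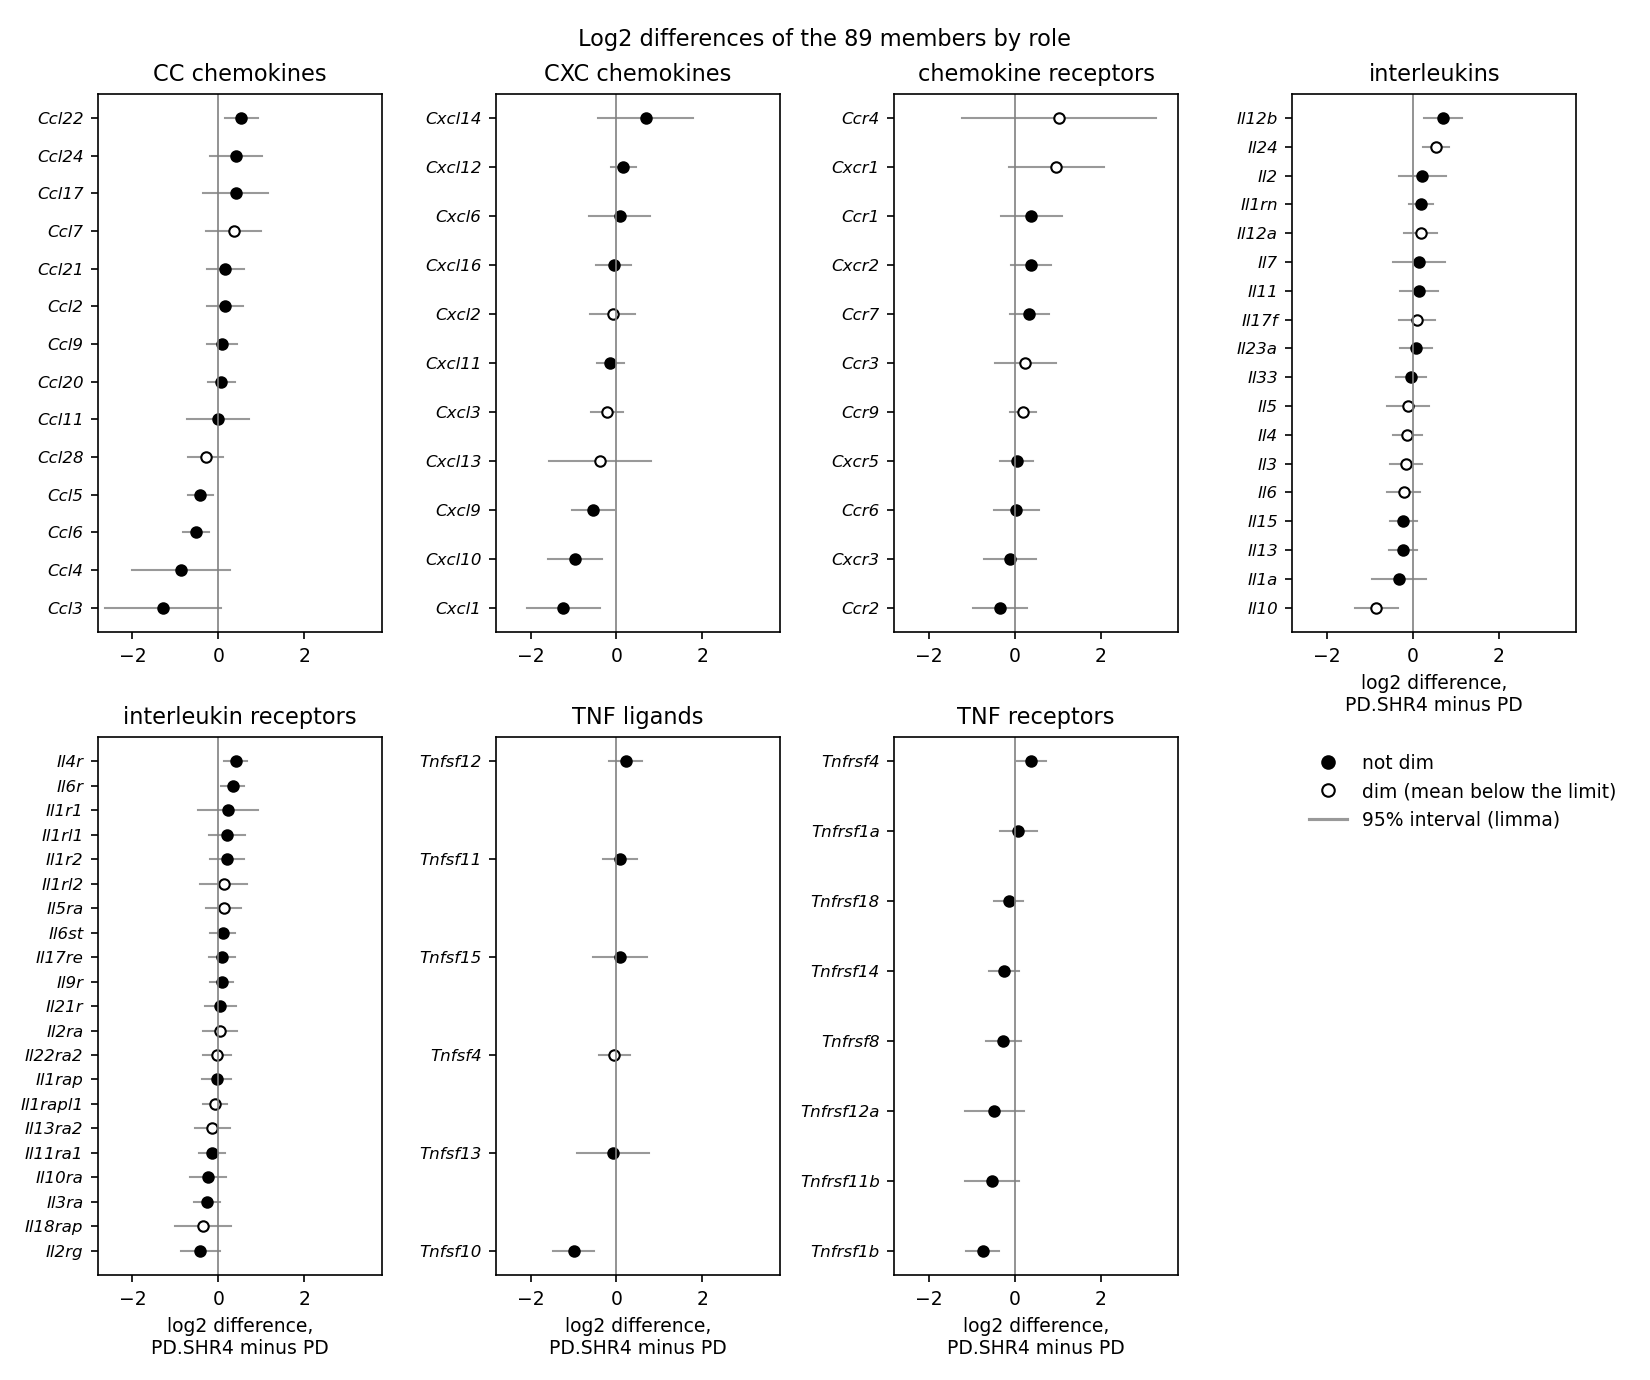
Log2 differences, PD.SHR4 minus PD, of the 89 members by role, 1 symbol per probe set. Open symbols are dim probe sets, and the grey line through each symbol is its 95% interval (limma). The medians of the roles, which are not drawn, ran from -0.25 for TNF receptors to 0.25 for chemokine receptors.

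Among the CXC chemokines, the lowest PD.SHR4 values relative to PD were those of Cxcl1, Cxcl10 and Cxcl9. Cxcl1 attracts neutrophils through Cxcr2, and Cxcl9, Cxcl10 and Cxcl11 are interferon-induced ligands of Cxcr3 on activated T and NK cells. Promoters of these 4 genes are printed because 3 of them had an unadjusted p under 0.05 and 3 lie next to each other on chromosome 14. The promoter of Tnfrsf1b is added as that of the TNF receptor with the smallest p. Each sequence is the 250 bases before the RefSeq start in assembly GRCr8, 5′ to 3′ on the strand of the gene. Capitals mark matches on either strand to the core of the interferon-stimulated response element, TTTCNNTTTC, or to the NF-kappaB consensus. That consensus was read as GGG, A or G, NN, a pair of C or T, and CC, where N is any base.
Cxcl11: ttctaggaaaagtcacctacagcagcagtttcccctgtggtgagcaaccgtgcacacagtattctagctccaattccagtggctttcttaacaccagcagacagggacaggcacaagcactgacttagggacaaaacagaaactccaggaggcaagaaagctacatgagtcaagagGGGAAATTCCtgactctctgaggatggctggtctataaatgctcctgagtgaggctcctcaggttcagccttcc
Cxcl10: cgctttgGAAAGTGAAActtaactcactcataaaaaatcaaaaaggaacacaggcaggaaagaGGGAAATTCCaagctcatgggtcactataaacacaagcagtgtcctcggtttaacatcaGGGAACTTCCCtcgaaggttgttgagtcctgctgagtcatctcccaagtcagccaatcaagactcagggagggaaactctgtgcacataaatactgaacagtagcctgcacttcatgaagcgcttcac
Cxcl9: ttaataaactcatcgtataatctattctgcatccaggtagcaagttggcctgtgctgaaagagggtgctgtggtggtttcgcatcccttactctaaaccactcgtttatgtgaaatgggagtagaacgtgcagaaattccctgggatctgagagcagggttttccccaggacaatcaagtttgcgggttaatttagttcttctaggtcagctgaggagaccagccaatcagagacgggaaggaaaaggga
Cxcl1: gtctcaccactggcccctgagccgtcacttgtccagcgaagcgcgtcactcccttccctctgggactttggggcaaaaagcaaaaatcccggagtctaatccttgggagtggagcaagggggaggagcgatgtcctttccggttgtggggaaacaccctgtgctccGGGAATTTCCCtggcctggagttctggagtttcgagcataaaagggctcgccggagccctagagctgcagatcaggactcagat
Tnfrsf1b: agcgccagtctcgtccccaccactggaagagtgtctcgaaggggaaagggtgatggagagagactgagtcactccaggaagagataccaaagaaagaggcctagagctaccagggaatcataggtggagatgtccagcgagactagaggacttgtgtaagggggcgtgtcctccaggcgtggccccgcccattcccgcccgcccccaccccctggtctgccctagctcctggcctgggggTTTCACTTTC

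The Cxcl11, Cxcl10 and Cxcl9 sequences are chr14:15973478-15973727, chr14:15988816-15989065 and chr14:16006916-16007165, all on the plus strand. Those of Cxcl1 and Tnfrsf1b are chr14:17479322-17479571 and chr5:162387412-162387661, both on the minus strand. Cxcl10 held an interferon-element core 243 to 234 bases before its start, an NF-kappaB match 187 to 178 bases before it and a pair of overlapping NF-kappaB matches between 128 and 118 bases before it. Cxcl1 held overlapping NF-kappaB matches between 84 and 74 bases before its start, and Cxcl11 held 1 match 74 to 65 bases before its start. In Tnfrsf1b the interferon-element core lay 10 to 1 bases before the start, and in Cxcl9 neither motif was found in this window. A RefSeq promoter of full length under the same symbol was available for 64 of the 89 members, and 2 of these had several. The NF-kappaB consensus was found for 13 of the 64 (20.3%), against 1901 of 27457 genes (6.92%), and the interferon-element core for 5 (7.81%), against 992 (3.61%). Of members with an unadjusted p under 0.05 whose promoters are not printed, Tnfsf10, Ccl6, Ccl22, Il24, Il4r, Il6r and Tnfrsf4 held neither motif. NF-kappaB matches also lay before members whose arrays overlapped, among them Cxcl2, Cxcl6, Ccl9, Ccl20, Il6 and Il1r1. Whether matches go with the differences was not tested. A match describes letters only. Some members are neighbouring copies of each other, so their promoters are not independent.

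Cxcl1 measured 8.89, 8.12 and 9.16 on the PD arrays and 7.77 and 7.21 on the PD.SHR4 arrays, so that the difference was -1.24 ± 0.34 (adjusted p = 0.190, limma). Both PD.SHR4 arrays lay below all 3 PD arrays. Cxcl10 measured 5.11, 5.44 and 5.96 against 4.59 and 4.49, a difference of -0.97 ± 0.25 (adjusted p = 0.174). Cxcl9 measured 6.03, 6.66 and 6.46 against 5.84 and 5.83, a difference of -0.54 ± 0.20 (adjusted p = 0.316). The arrays of the strains were apart for both genes as well. Cxcl11, named after its values were seen as the third of these neighbours, measured 6.99, 7.23 and 7.10 against 6.96 and 6.97, a difference of -0.14 with a 95% interval of -0.45 to 0.17, so its arrays were apart by a small margin.

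The remaining CXC chemokines differed less, or unevenly between arrays. Cxcl12, the ligand that retains leukocytes in tissue, measured 8.27, 8.43 and 8.27 against 8.54 and 8.43, a difference of 0.16 ± 0.12. Cxcl14 measured 3.48, 4.95 and 3.82 against 5.02 and 4.50, a difference of 0.68 ± 0.45, and its second PD array lay within the PD.SHR4 range. Cxcl16 and Cxcl6 differed by -0.063 and 0.075 and overlapped. The 3 dim members Cxcl2, Cxcl3 and Cxcl13 differed by -0.091, -0.22 and -0.38 and overlapped too. Over the 11 CXC chemokines, 3 had lower values at an unadjusted p under 0.05 (27.3%, against 7.92% of all probe sets). None had higher values (against 5.84%), and the median was -0.14. Such a share within a role rests on few genes.

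Among the CC chemokines the pattern was divided. Ccl6, a chemokine of rodents made by myeloid cells, measured 10.43, 10.49 and 10.62 on the PD arrays and 9.94 and 10.04 on the PD.SHR4 arrays, a difference of -0.53 ± 0.12 (adjusted p = 0.134, limma). Ccl5, a chemokine made by T and NK cells, measured 7.29, 7.43 and 7.42 against 6.93 and 6.99, a difference of -0.42 ± 0.12 (adjusted p = 0.190). Both genes had narrow ranges within each strain and no overlap. Ccl9, the neighbour of Ccl6, measured 11.59, 11.86 and 11.55 against 11.73 and 11.76, and its arrays overlapped with a difference of 0.083.

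Ccl3 and Ccl4 are macrophage inflammatory proteins that attract monocytes and lymphocytes. Ccl3 measured 5.60, 5.12 and 6.96 against 4.93 and 4.26, a difference of -1.29 ± 0.55 (adjusted p = 0.387, limma). Ccl4 measured 5.02, 4.75 and 6.33 against 4.52 and 4.46, a difference of -0.88 ± 0.46 (adjusted p = 0.494). PD array 3 was the highest for both. Without it the differences were -0.76 and -0.39. Of the CC chemokines with higher values in PD.SHR4, Ccl22, a ligand of Ccr4 made by dendritic cells and macrophages, measured 3.14, 2.73 and 2.88 against 3.39 and 3.50, a difference of 0.53 ± 0.16 (adjusted p = 0.217, limma). Ccl22 lay under the dim limit on PD arrays 2 and 3, though its mean did not. Its neighbour Ccl17, which shares that receptor, measured 4.64, 4.42 and 3.91 against 5.12 and 4.33 and overlapped, and Ccl24, which attracts eosinophils, measured 5.41, 6.10 and 5.39 against 5.93 and 6.16 and overlapped. The monocyte chemokine Ccl2 differed by 0.15, and Ccl11, Ccl20 and Ccl21 differed by -0.016, 0.070 and 0.16, all with overlap. The dim members Ccl7 and Ccl28 differed by 0.35 and -0.29. Over the 14 CC chemokines, 2 had lower values at an unadjusted p under 0.05 (14.3%, against 7.92% of all probe sets). With higher values there was 1 (7.14%, against 5.84%), and the median was 0.076.

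**Figure D2:**
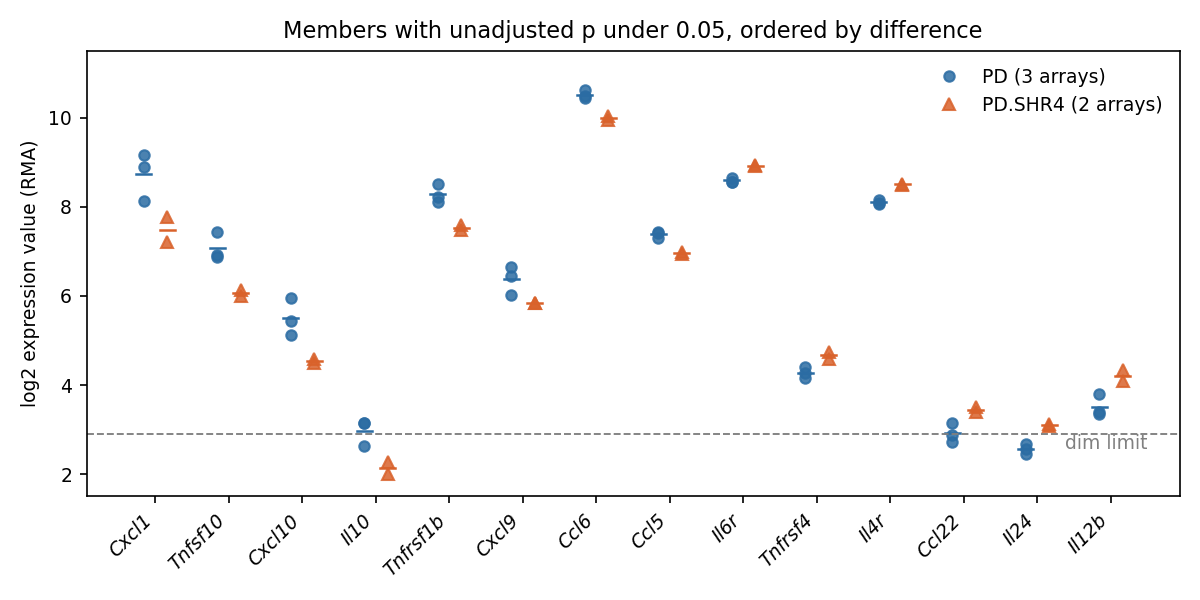
Log2 value on each array of the 14 members with an unadjusted p under 0.05, ordered by their difference, with circles for the 3 PD arrays, triangles for the 2 PD.SHR4 arrays, short lines for the means and a dashed line at the dim limit of 2.89. For Cxcl1 the PD arrays sit at 8.89, 8.12 and 9.16 and the PD.SHR4 arrays at 7.77 and 7.21, and the 2 strains do not overlap for any of the 14 genes shown.

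Chemokine genes lie in clusters, and differences were uneven within them. In the run of 5 genes on chromosome 10 with no other protein-coding gene between them, Ccl5, Ccl9, Ccl6, Ccl3 and Ccl4 differed by -0.42, 0.083, -0.53, -1.29 and -0.88 in gene order. In the run of Ccl2, Ccl7 and Ccl11 on the same chromosome the differences were 0.15, 0.35 and -0.016. On chromosome 14, Cxcl11, Cxcl10 and Cxcl9 differed by -0.14, -0.97 and -0.54. In the other cluster of that chromosome Cxcl2, Cxcl1, Cxcl3 and Cxcl6 differed by -0.091, -1.24, -0.22 and 0.075. Cxcl1, Cxcl2 and Cxcl3 are close copies, and whether their probes cross-hybridise was not tested. Gene order is that of RefSeq assembly GRCr8.

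**Figure D3:**
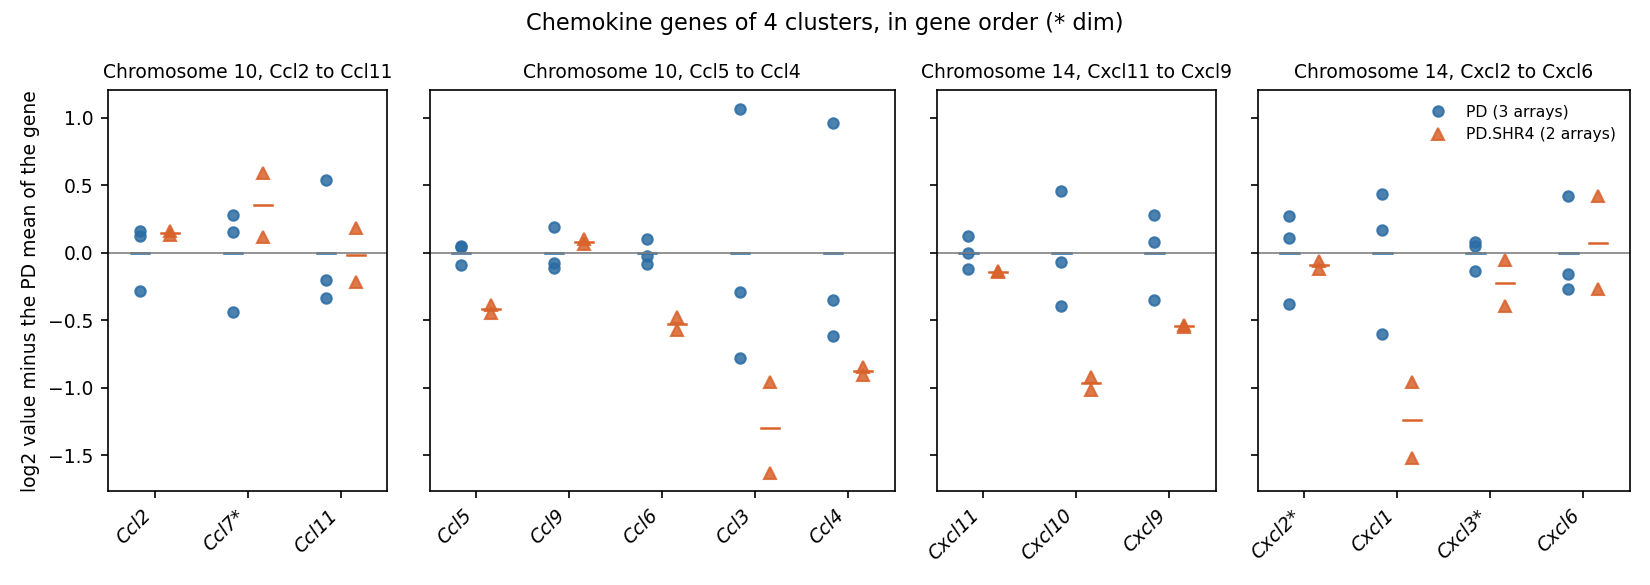
Log2 values on each array of the chemokine genes of 4 clusters, drawn in gene order as each value minus the PD mean of the gene, circles for PD and triangles for PD.SHR4. Within the chromosome 10 cluster that starts with Ccl5, Ccl9 overlaps while Ccl5, Ccl6, Ccl3 and Ccl4 do not.

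No chemokine receptor had an unadjusted p under 0.05 in either direction. For 3 of the 11 the arrays were apart with higher PD.SHR4 values (27.3%, against 14.8% of all probe sets). They were apart with lower values for none (against 17.1%). With 11 genes these shares are coarse. Ccr7, which leads dendritic cells and T cells to lymph nodes, measured 5.38, 5.86 and 5.87 against 6.04 and 6.04, a difference of 0.34 ± 0.18, or 0.18 without PD array 1. Cxcr2, the neutrophil receptor of Cxcl1, measured 3.59, 4.16 and 3.95 against 4.32 and 4.24, a difference of 0.38 ± 0.19, or 0.23 without PD array 1. Its neighbour Cxcr1 was dim and measured 2.11, 1.83 and 3.34 against 3.54 and 3.24, so PD array 3 lay among the PD.SHR4 arrays. The dim Ccr9 differed by 0.20.

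Ccr2, the monocyte receptor of Ccl2, measured 3.92, 4.40 and 4.76 against 4.11 and 3.91 and overlapped, and Ccr1 measured 2.90, 2.78 and 3.61 against 3.72 and 3.25 and overlapped. Cxcr3, the receptor of Cxcl9, Cxcl10 and Cxcl11, measured 4.68, 5.05 and 4.26 against 4.45 and 4.68, a difference of -0.099 with a 95% interval of -0.70 to 0.51. Cxcr5 and Ccr6, receptors of B cells and T cell subsets, differed by 0.047 and 0.044. The dim Ccr3 differed by 0.25. Ccr4, also dim, measured 1.47, 1.75 and 2.90 against 4.61 and 1.55. One PD.SHR4 array was far above the other 4 arrays, and without that array the difference was -0.49 in place of 1.04. Cxcr3, Ccr2, Ccr4 and the other receptors with no rank in the naming rule were named after their values were seen.

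Of the 18 interleukins, 8 were dim, and those with the smallest p were weakly measured. Il10, an anti-inflammatory cytokine, was dim and measured 3.15, 2.64 and 3.15 against 2.26 and 2.00, a difference of -0.84 ± 0.20 (adjusted p = 0.147, limma). Il24, of the same family and with 2 protein-coding genes between them, was dim as well and measured 2.68, 2.46 and 2.56 against 3.12 and 3.08, a difference of 0.54 ± 0.12 (adjusted p = 0.132). These neighbours thus differed in opposite directions, each with arrays apart. Il12b, the subunit shared by interleukins 12 and 23, was not dim and measured 3.79, 3.36 and 3.38 against 4.08 and 4.34, a difference of 0.70 ± 0.18 (adjusted p = 0.171). The partner subunits of Il12b differed by 0.18 (Il12a, dim) and 0.080 (Il23a), both with overlap.

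Il33, the alarmin of the barrier and stromal cells, measured 8.01, 8.33 and 8.27 against 8.22 and 8.10, a difference of -0.042 with a 95% interval of -0.40 to 0.31. Il1rn, the antagonist of the interleukin-1 receptor, measured 6.45, 6.50 and 6.56 against 6.68 and 6.72, a difference of 0.19 ± 0.11 with arrays apart. Il1a differed by -0.32, and Il15, Il7, Il11 and Il13 by -0.22, 0.14, 0.14 and -0.24. Il15, which sustains NK and memory T cells, and Il13 were lower without overlap. Il2 differed by 0.22 and overlapped. Il6, the inducer of hepatic acute phase proteins, was dim on every array, at 1.41, 1.55 and 1.81 in PD and 1.46 and 1.30 in PD.SHR4. Il3, Il4, Il5 and Il17f were dim with differences of -0.16, -0.13, -0.12 and 0.096. Over the 18 interleukins the median was 0.019.

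The receptor chains with the smallest p were those of interleukins 4 and 6, and both had higher values in PD.SHR4. Il4r, the chain shared by the interleukin-4 and interleukin-13 receptors, measured 8.08, 8.15 and 8.06 against 8.52 and 8.49, a difference of 0.41 ± 0.11 (adjusted p = 0.186, limma). Il6r, the binding chain through which hepatocytes respond to interleukin-6, measured 8.64, 8.56 and 8.57 against 8.93 and 8.91, a difference of 0.33 ± 0.11 (adjusted p = 0.259). The ranges within a strain were narrow for both, and the arrays were apart. Il6st, the gp130 chain that signals for this family, measured 9.58, 9.57 and 9.61 against 9.60 and 9.77 and overlapped, with a difference of 0.099 and a 95% interval of -0.19 to 0.39.

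Il2rg, the common gamma chain, measured 4.93, 5.44 and 5.07 against 4.82 and 4.63, a difference of -0.42 ± 0.18 (adjusted p = 0.398, limma) with arrays apart, or -0.28 without PD array 2. Il3ra differed by -0.25 with arrays apart and Il10ra by -0.25 with overlap. The interleukin-1 receptor Il1r1 measured 9.75, 8.86 and 9.64 against 9.70 and 9.57 and overlapped, with a difference of 0.22 ± 0.28. Its accessory chain Il1rap differed by -0.043 and the decoy receptor Il1r2 by 0.20. Il1rl1, the receptor of Il33, differed by 0.20. Il11ra1, Il17re, Il21r and Il9r differed by -0.15, 0.085, 0.040 and 0.077, all with overlap. The 7 dim receptors were Il13ra2, Il18rap, Il1rapl1, Il1rl2, Il22ra2, Il2ra and Il5ra, and their differences ran from -0.35 to 0.13 with overlap in each. Over the 21 interleukin receptors, 2 had higher values at an unadjusted p under 0.05 (9.52%, against 5.84% of all probe sets). None had lower values (against 7.92%), and the median was 0.040.

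Of the 6 TNF ligands, Tnfsf10, the death ligand TRAIL, measured 6.88, 6.91 and 7.42 on the PD arrays and 6.14 and 6.01 on the PD.SHR4 arrays, a difference of -1.0 ± 0.20 (adjusted p = 0.0959, limma). It had the smallest p of all members, and its arrays were apart by more than their range within either strain. Tnfsf12 (TWEAK) measured 6.69, 6.30 and 6.35 against 6.68 and 6.64 and overlapped. Its neighbour Tnfsf13 (APRIL) measured 6.60, 7.65 and 6.63 against 6.75 and 7.02, with PD array 2 above the rest. Tnfsf11 (RANKL), Tnfsf15 and the dim Tnfsf4 differed by 0.084, 0.080 and -0.050, all with overlap.

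Of the 8 TNF receptors none was dim. Tnfrsf1b, the type 2 TNF receptor of leukocytes and endothelium, measured 8.12, 8.21 and 8.50 against 7.47 and 7.59, a difference of -0.75 ± 0.16 (adjusted p = 0.107, limma). Its arrays were apart. Tnfrsf1a, the type 1 TNF receptor of most cells, measured 9.52, 9.09 and 9.48 against 9.56 and 9.34 and overlapped, with a difference of 0.089 and a 95% interval of -0.34 to 0.52. Tnfrsf4 (OX40), a costimulator of T cells, measured 4.16, 4.41 and 4.26 against 4.75 and 4.59, a difference of 0.39 ± 0.13 (adjusted p = 0.271). Tnfrsf11b, the RANKL decoy osteoprotegerin, measured 6.03, 6.86 and 6.24 against 5.79 and 5.91, a difference of -0.53 ± 0.26, or -0.29 without PD array 2. Tnfrsf12a, the TWEAK receptor, differed by -0.47 with overlap, and Tnfrsf14, Tnfrsf18 and Tnfrsf8 by -0.25, -0.14 and -0.26. Of these only Tnfrsf14 had arrays apart, and its difference was -0.15 without PD array 1. Over the 8, 6 lay below 0, with a median of -0.25.

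Il6, Il5ra, Il17re, Cxcl12 and Tnfrsf1a are on chromosome 4, the chromosome that carries the SHR segment. Whether any of them lies inside the segment was not analysed here. Their differences ran from -0.21 to 0.16, with a median of 0.089, and none had an unadjusted p under 0.05.

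No gene of the 4 signalling lists passed the test either. Of 28 adaptors and kinases of interleukin-1 and TNF signalling, 10 were measured and 9 lay below 0, with a median of -0.21. The caspase-8 inhibitor Cflar differed by -0.43 ± 0.14, the deubiquitinase Cyld by -0.50 ± 0.18 and the kinase Map3k8 by -0.23 ± 0.11. Of 16 NF-kappaB subunits and inhibitors, 6 were measured, with a median of -0.12, or -0.062 without PD.SHR4 array 2, -0.068 without PD array 2, -0.065 after a further quantile normalisation and -0.069 after median centring. The kinase subunit Ikbkg differed by 0.40, the subunit Rela by -0.16 and the inhibitor Nfkbie by -0.19.

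Of 25 JAK, STAT and SOCS genes, 14 were measured, 7 below 0 and 7 above, with a median of -0.095. Socs2, a feedback inhibitor of growth hormone signalling, measured 8.79, 9.27 and 9.24 against 7.99 and 7.52, a difference of -1.35 ± 0.22 (adjusted p = 0.0671, limma). Its adjusted p ranged from 0.00956 with array weights to 0.399 without PD.SHR4 array 2, and it lay under 0.05 after an intensity trend, a further quantile normalisation or the removal of dim probe sets. Jak3, the kinase bound to Il2rg, measured 6.36, 6.11 and 6.40 against 5.61 and 5.43, a difference of -0.77 ± 0.14 (adjusted p = 0.0838). Both had arrays apart. The phosphatase Ptpn6 differed by -0.28. Of 62 other cytokines, chemokines and receptors, 34 were measured, with a median of -0.036. Lif and Csf1 differed by 0.49 ± 0.16 and 0.43 ± 0.14, and Mif by -0.35 ± 0.12. Tnf itself, named after its values were seen, differed by -0.18 with a 95% interval of -0.76 to 0.40.

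The markers of 3 kinds of leukocyte had lower mean values on both PD.SHR4 arrays than on any PD array. The mean over 10 of 20 Kupffer cell and macrophage markers was 8.89 to 9.06 on the PD arrays and 8.57 to 8.59 on the PD.SHR4 arrays, and 7 of the 10 were lower at an unadjusted p under 0.05. The mean over 15 of 23 T and NK cell markers was 4.40 to 4.57 against 3.97 to 4.02, with 7 lower. The mean over 5 of 11 neutrophil markers was 5.04 to 5.16 against 4.30 to 4.34, with 4 lower. Of these 4, Fcgr3a differed most, by -1.54, and Retnlg was dim on every array. The remaining marker, Mmp8, differed by -0.11 with overlap. The neutrophil receptor Cxcr2, a member outside this list, went the other way, at 0.38 with arrays apart. Its dim neighbour Cxcr1 differed by 0.97 with overlap. Over all probe sets, 7.92% were lower at an unadjusted p under 0.05. No single marker of these lists reached an adjusted p under 0.05 (limma). The granzyme gene Gzmb, chosen after its values were seen, was like Ccl3 and Ccl4 highest on PD array 3, at 5.75, 5.43 and 6.85 against 3.91 and 4.10. Among the macrophage markers Lyz2 lay above 0, at 0.16 with arrays apart, and Clec4f, which is specific to Kupffer cells, differed by -0.079. Among the T and NK cell markers 4 of 15 lay above 0, namely Cd5 at 0.20, Cd2 at 0.20, Cd4 at 0.063 and Zap70 at 0.022.

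Stellate cell and fibroblast markers (10 of 12) averaged 6.26 to 6.60 against 6.23 to 6.30, and hepatocyte markers (10 of 12) 12.35 to 12.42 against 12.44 to 12.46. Of the 10 hepatocyte markers 7 lay above 0 and 3 below, with a median of 0.050. Cyp2e1 differed most, by 0.43, while Asgr1 and Fgb differed by -0.16 and -0.051 with arrays apart. Of the thinly measured lists, 1 of 11 B and plasma cell markers differed by -0.11, 2 of 12 endothelial markers had a median of -0.055 and 3 of 7 cholangiocyte markers a median of 0.22. The only measured dendritic cell marker was Ccl17, itself a member. The part of these cell types in the chemokine and receptor values was not tested.

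**Figure D4:**
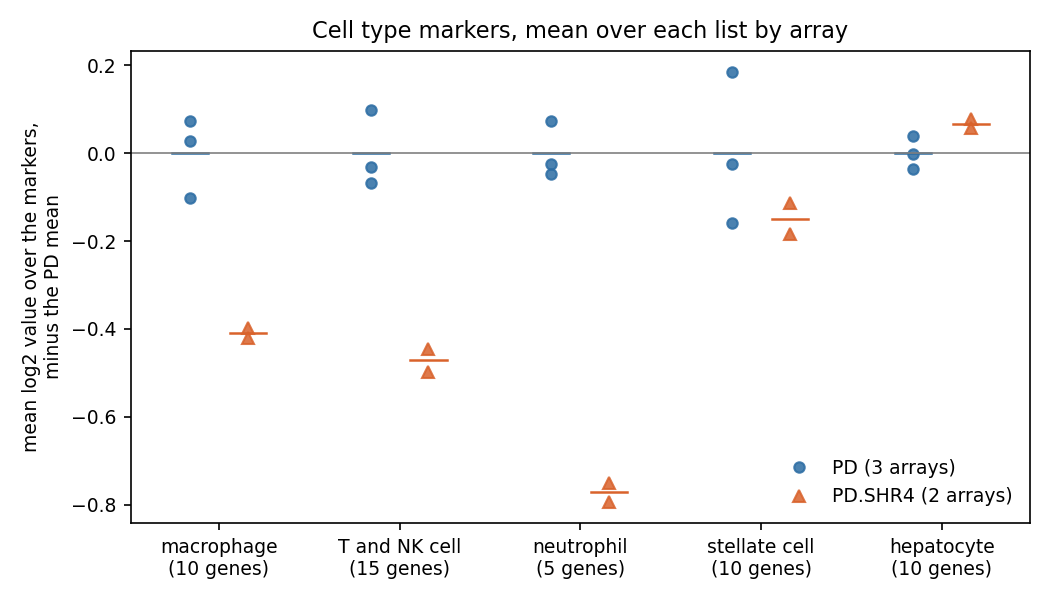
Mean log2 value over the measured markers of 5 cell types on each array, minus the PD mean of the list, circles for the 3 PD arrays and triangles for the 2 PD.SHR4 arrays. The PD.SHR4 arrays lie below all PD arrays for macrophage, T and NK cell and neutrophil markers and above them for hepatocyte markers. Among the hepatocyte markers Cyp2e1 differed most, by 0.43, and 3 of the 10 lay below 0.

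The counts depended on how much trust each array was given. With limma's array weights, 14 of the 89 members (15.7%) passed the adjusted threshold, against 819 of all 8797 probe sets (9.31%). Of the 14, 9 were lower and 5 higher, and whole-table shares by direction were not worked out for the weighted fit. That fit gave PD array 3 a weight of 4.26 and the other PD arrays 0.484 and 0.304, so it leans on 1 PD array. Of the 14, 13 were among the 14 members with an unadjusted p under 0.05, and the other was Ccl3.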

How the data were processed

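The deposited table holds log2 expression values, which the authors made with RMA in Affymetrix Expression Console (core-gene analysis), per the labels. Partek, beside RMA, is listed in the submitters' processing notes. No version, annotation release or genome build is named in the sources used here. RMA corrects background, brings the arrays to a common distribution and combines a gene's probes into 1 value.

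Probe sets were named through the platform annotation (7603 with 1 symbol, 409 with several, 785 with none), and all 89 members matched the RefSeq gene table of GRCr8 by gene ID. That table gave symbols and gene order only, and promoters came from RefSeq, GRCr8. All 8797 probe sets on the 5 arrays entered a 2-group fit with lmFit and eBayes (limma 3.58.1, R 4.3.3), two-sided and with no covariate, with Benjamini-Hochberg adjustment and a threshold of 0.05. Intervals are 95% intervals of that fit. The fit was also run on simulated arrays with independent noise, which tested the recovery of known differences and not the intervals or the effect of pooling. The number of arrays limits the precision, and no scan dates or other batches are given in the sources used here.

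Named were members past the threshold, in each role the 3 with the smallest p and the 2 with the highest mean, the 8 highest and 8 lowest differences among members that were not dim, and up to 3 genes of each signalling list. Every other member is given by its difference and was named after its values were seen. The members, the 4 signalling lists and the 9 marker lists were chosen with earlier results of these data known. The fit was repeated without each array, with a replicate block, with array weights, with a trend and robust shrinkage, after median centring, after a further quantile normalisation, and without the 25% of probe sets with the lowest means.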

Additional observations from a re-analysis of the deposited data

How the results depend on the processing

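The count of members past the adjusted threshold was also 0 without each PD array in turn, with an intensity trend, without the dimmest 25% of probe sets, with quantile normalisation once more and with median centring. Without PD array 1, 2 and 3, only 28, 55 and 18 of all 8797 probe sets passed, so a 0 among 89 members says little in those fits. Without either PD.SHR4 array no probe set of the whole table passed, so the 0 there says nothing about the members. With array weights the count was 14, against 819 of all 8797 probe sets. Of the 14, 9 differed by at least 1.5-fold, and the whole-table share at that fold was not worked out. The weighted fit put 33 members at an unadjusted p under 0.05 (37.1%, against 28.0% of all probe sets). The titles number the arrays of both strains, but the numbers are not said to mark anything shared, so they were not taken as pairs. Deviations of same-numbered arrays from their strain mean hardly correlated (r = 0.0498 and 0.0819, 2 pairs). With 2 PD.SHR4 arrays these deviations mirror each other, so the r values are not independent and cannot exclude a pairing. With the replicate block 2 members passed, both by at least 1.5-fold: Cxcl1 at -1.02 (adjusted p = 0.0386) and Cxcr1 at 1.42 (adjusted p = 0.00692, limma), against 163 of all probe sets. The block drops PD array 3, which has no partner, from the estimate.

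Leaving out each array in turn gave 8 to 21 members at an unadjusted p under 0.05 (8.99% to 23.6%, against 8.07% to 17.4% of all probe sets) and 38 to 46 without overlap (42.7% to 51.7%, against 40.7% to 51.9%). Without a PD.SHR4 array, the lone one was assumed to vary like PD.

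The median over the members, 0.040, was -0.036 to 0.026 without single arrays, 0.094 after median centring and -0.022 with array weights, and so has no settled sign. Median centring moved the median of all probe sets to 0.054.

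The NF-kappaB median was -0.15 to -0.062 without single arrays. For adaptors and kinases, 1 gene, Cyld, passed with array weights. Their median was -0.25 with the replicate block, -0.17 with quantile normalisation, -0.16 with centring and -0.16 with array weights, and -0.25 to -0.17 without single arrays. Among JAK, STAT and SOCS genes 1 passed with the replicate block, with the trend, without dim probe sets and with quantile normalisation, each time Socs2, and 2 with array weights, Socs2 and Jak3. Their median was -0.043 with the block and -0.042 with centring, and -0.14 to -0.043 without single arrays. Among other cytokines 1 passed with the block, Cntf, and 2 with array weights, Lif and Pf4. Their median was 0.0084 with the block, 0.018 with centring and 0.012 with array weights, and -0.035 to 0.0084 without single arrays.

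Without at least 1 array 29 of the 89 members changed sign. Of these, 5 had a difference of at least 0.2 in size: Ccr4, Ccr3, Cxcl13, Il1r1 and Il2. With array weights Ccr1, at 0.39 without them, was -0.0063, Cxcr5 -0.022, Tnfrsf1a -0.0055 and Tnfsf13 0.19, and with centring Il33 was 0.012. Without single arrays the ranges were -0.076 to 0.12 for Cxcr5, -0.060 to 0.38 for Il1r1, -0.14 to 0.021 for Il33, -0.046 to 0.20 for Tnfrsf1a, -0.041 to 0.16 for Tnfsf11 and -0.26 to 0.26 for Tnfsf13. The cause of these changes was not tested.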

Other observations

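Arrays of a strain were hybridised with pooled cDNA, yet some members varied widely between arrays of 1 strain. The range within PD or within PD.SHR4 was at least 1 on the log2 scale for 8 of the 89 members (8.99%), against 619 of all 8797 probe sets (7.04%). Ccr4, the receptor of Ccl17 and Ccl22, had the widest range of these 8, 3.06 between its 2 PD.SHR4 arrays. Ccl3 and Ccl4 ranged over 1.84 and 1.58 among the PD arrays, with PD array 3 highest. Cxcl13 and Cxcl14 ranged over 1.66 and 1.48 among the PD arrays, with PD array 2 highest. The other members with such a range were Cxcr1 (1.52), Tnfsf13 (1.05) and Cxcl1 (1.04), all among the PD arrays.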
